A study of Mus musculus with 14 samples.

Results

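Il6, Tnf, Lta, Ltb, Il10 and Tgfb1 encode cytokines that activated B cells can make: interleukin 6, tumour necrosis factor, lymphotoxin alpha, lymphotoxin beta, interleukin 10 and transforming growth factor beta 1. They were taken by symbol from a deposited table of mouse gene expression, in which each of the 6 had 1 row of 22295, and all 6 were among the 9627 genes tested. Polyadenylated RNA was sequenced from splenic B cells isolated by negative selection and stimulated with LPS (5 µg/ml) plus IL-4 (10 ng/ml) during a culture of 96 h. The 14 libraries came from mice without miR-155 (miR-155[-/-], here miR-155 KO, n = 5), from mice in which the miR-155 site of the PU.1 gene is mutated (labelled PU.1[155-/155-], a label that does not spell out the mutation, which is taken from knowledge of the study; here PU.1 KI, n = 5) and from wild-type mice (WT, n = 4). All 3 genotypes had the same stimulation, and no unstimulated library was analysed here. The miR-155 deletion and the PU.1 mutation are germline changes, so they were not limited to the B cells of these mice. The sources used here give no age, no sex and no number of animals behind a library.

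Activated B cells present antigen and secrete antibody, and they also secrete cytokines. IL-6 acts on T follicular helper cells and plasma cells, while IL-10 and TGF-beta restrain immune responses and mark B cells called regulatory. TNF and the lymphotoxins are neighbours in one gene cluster and belong to one protein family: TNF and the lymphotoxin alpha trimer bind TNF receptors, and lymphotoxin alpha with lymphotoxin beta forms a membrane complex that organises lymphoid tissue through the lymphotoxin beta receptor. Activation of B cells induces the microRNA miR-155, and PU.1, an ETS family transcription factor, is one of its targets. The microRNA pairs with its targets through its seed, bases 2 to 8, shown in capitals. Its mature sequence is that of RefSeq on GRCm38.p6, at chr16:84714143-84714165 on the plus strand:
mmu-miR-155-5p: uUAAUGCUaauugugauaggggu

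The 7-base match to this seed, AGCATTA, did not occur in the 3′ UTR of any of the 6 genes, taken from the first GENCODE M21 transcript of each. The shorter 6-base match GCATTA did not occur either. Among 7544 first transcripts with a 3′ UTR of 135 to 764 nt, the range of the 6 genes, 2.39% held AGCATTA and 5.85% held GCATTA. These counts say only that the letters are not in these windows. The AU-rich pentamer ATTTA, read on the transcript strand, occurred 8 times in the 3′ UTR of Tnf, 6 times in Il6 and 6 times in Il10. It occurred 3 times in Lta, 1 time in Tgfb1 and 0 times in Ltb, and 41.8% of the 7544 3′ UTRs held at least 1. The longer AU-rich nonamer TTATTTATT, which contains the pentamer, was found 5 times in Tnf and 1 time in Lta, and 2.56% of the 3′ UTRs held it.

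Relative to WT, Il6 was higher and Tnf, Lta and Ltb were lower in both mutant genotypes, and each of these changes was greater in miR-155 KO than in PU.1 KI. The lower Ltb in PU.1 KI was the weakest of them: its libraries overlapped WT, and its call was lost when some single libraries were left out. In miR-155 KO cells Il6 mean RPKM was 4.61-fold higher than in WT and Tnf was 5.2-fold lower, with 2.64-fold lower Lta and 1.9-fold lower Ltb. Il10 and Tgfb1 had other patterns: Il10 was 1.85-fold higher in PU.1 KI than in WT, and Tgfb1 was 1.46-fold lower in miR-155 KO than in WT. RPKM counts reads per kilobase for every 1000000 reads, and all levels are mean RPKM ± SD. Changes are log2 fold changes ± SE of log2(RPKM + 0.5), which understates the change of low genes, tested with limma over all 9627 genes with Benjamini-Hochberg adjusted p under 0.05 as the call.

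**Figure D1:**
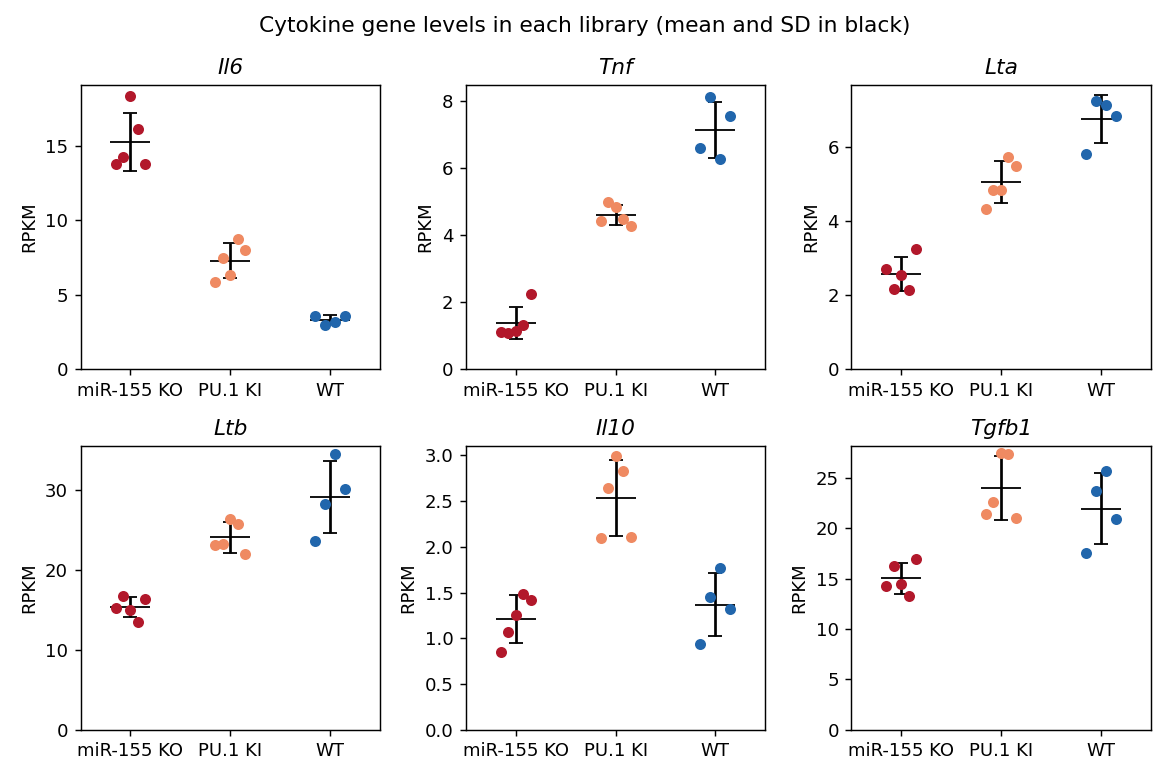
RPKM of each cytokine gene (vertical axes, from 0) in every library (points) of miR-155 KO (n = 5), PU.1 KI (n = 5) and WT (n = 4), with the mean and SD in black. Il6 averaged 15.3 RPKM in miR-155 KO, 7.29 in PU.1 KI and 3.32 in WT, while Tnf averaged 1.37, 4.60 and 7.14 RPKM in the same order.

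In miR-155 KO against WT, 1 of the 6 genes rose (Il6), 4 fell (Tnf, Lta, Ltb, Tgfb1) and 1 was not called (Il10). Of all tested genes, 27.2% rose and 35.3% fell in that comparison, 62.5% in all. In PU.1 KI against WT, 2 rose (Il6, Il10), 3 fell (Tnf, Lta, Ltb) and Tgfb1 was not called, where 23.7% of all genes rose and 4.03% fell, 27.7% in all. In miR-155 KO against PU.1 KI, 1 rose (Il6) and the other 5 fell, where 17.9% of all genes rose and 46.4% fell, 64.3% in all. The split of all genes depends on the scaling: with median-of-ratios scaling it was 3278 higher and 3274 lower for miR-155 KO against WT, against 2616 and 3401 on RPKM as deposited. For PU.1 KI against WT that scaling gave 1677 higher and 1518 lower, against 2279 and 388. For miR-155 KO against PU.1 KI it gave 3033 higher and 3013 lower, against 1725 and 4467, and the median of all genes on the deposited scale was -0.13. Relative to that median the changes between the 2 mutants were 1.16 for Il6, -1.35 for Tnf, -0.74 for Lta, -0.50 for Ltb, -0.70 for Il10 and -0.52 for Tgfb1. Neither scaling alternative, median-of-ratios or quantile, changed the direction of a called change among the 6 genes or any call.

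The 3 comparisons share libraries, so they are not independent of each other. The libraries are described as biological replicates. Each limma p-value sets a difference between genotypes against the spread between libraries, which is pooled over the 3 genotypes and moderated over all tested genes. Because these are bulk samples, fewer cells that make a cytokine and less RNA per cell cannot be told apart. Depth, estimated from the steps between low RPKM values, lay between 31.4 and 52.3 M reads (M for 1000000) and averaged 46.3 ± 6.17 M in miR-155 KO, 38.6 ± 5.60 in PU.1 KI and 39.6 ± 3.65 in WT. The first principal component took 66.1% of the variance, and on it miR-155 KO replicate 5 at 19.8 and WT replicate 1 at -15.4 stood apart from the rest of their genotypes, which lay at 24.2 or above and at -18.1 or below. Without both libraries the count of genes called among the 6 was 5 for miR-155 KO against WT, 5 for PU.1 KI against WT and 6 between the mutants, the same counts as with them. Sfpi1, the gene of PU.1, was at 15.5 to 18.3 RPKM in miR-155 KO, 21.1 to 26 in PU.1 KI and 9.73 to 13.2 in WT.

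The labelled cell type was checked by markers. All 10 B cell markers on the list were tested, and their summed level was 5457 to 5818 RPKM in miR-155 KO, 5678 to 6576 in PU.1 KI and 5166 to 5873 in WT. Macrophages and monocytes also make IL-6 and TNF. None of the 14 macrophage and monocyte markers in the table passed the filter on low values, and 12 of 14 averaged under 0.1 RPKM in each genotype. Their summed level was 1.18 to 1.46 RPKM in miR-155 KO, 0.402 to 0.689 in PU.1 KI and 0.445 to 0.700 in WT, so the libraries with most Il6 and least Tnf also had the most of these markers. The marker that led the sum, Emr1, averaged 0.738 RPKM in miR-155 KO, 0.253 in PU.1 KI and 0.200 in WT. Itgam averaged 0.331 RPKM in miR-155 KO, 0.126 in PU.1 KI and 0.0499 in WT, with no overlap between genotypes, the same order as Il6. Cd14 averaged 0.0674 RPKM in miR-155 KO, 0.0216 in PU.1 KI and 0.0233 in WT, while Csf1r averaged 0.0496, 0.0541 and 0.110 RPKM in the same order. C1qa was at 0 in every library. T cells are a source of TNF and lymphotoxin alpha. Only 2 of the 14 listed T cell markers in it were tested, and the summed level of the 14 was 9.26 to 11.5 RPKM in miR-155 KO, 11.3 to 14.4 in PU.1 KI and 12.1 to 15.4 in WT. Most of it was Lck and Cd2, while Cd3e reached at most 0.0567 RPKM and Cd3g 0.0957. Cd8a went the other way, averaging 0.645 RPKM in miR-155 KO, 0.0636 in PU.1 KI and 0.0307 in WT, with every miR-155 KO library above all others. Plasma cell markers, of which 6 of 7 were tested, summed to 312 to 452 RPKM in miR-155 KO, 275 to 392 in PU.1 KI and 457 to 542 in WT. They did not move together. By mean, Igj, Xbp1, Prdm1 and Tnfrsf17 were highest in WT, Irf4 and Slamf7 were lowest in WT, and Sdc1 was highest in miR-155 KO. Igj averaged 153 RPKM in miR-155 KO, 132 in PU.1 KI and 282 in WT, and Irf4 averaged 60.1, 49.5 and 37.9 in the same order. Of 8 dendritic cell markers 3 were tested, and the 8 summed to 73.0 to 87.5 RPKM in miR-155 KO, 113 to 141 in PU.1 KI and 68.8 to 111 in WT. Among them Zbtb46 averaged 4.62 RPKM in miR-155 KO, 2.67 in PU.1 KI and 2.34 in WT. Bst2 had another order, averaging 52.4 RPKM in miR-155 KO, 98.6 in PU.1 KI and 74.4 in WT. By mean, Flt3 was also highest in PU.1 KI, and it was lowest in WT. Of the 8 markers, 5 averaged under 0.1 RPKM in each genotype. Of 9 stroma markers 1 was tested, Pecam1, and the 9 summed to 3.32 to 4.06 RPKM in miR-155 KO, 6.87 to 7.65 in PU.1 KI and 6.56 to 7.48 in WT. The part of these cell types in the cytokine levels was not tested. NK cell, neutrophil, mast cell and basophil, and erythroid lists had 0 tested genes.

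Il6 encodes interleukin 6, a growth and survival factor for plasma cells and an inducer of T follicular helper cells. Its gene (ENSMUSG00000025746) lies on chromosome 5 at 30339701 to 30346508 on the plus strand of NCBIM37. Il6 was at 13.8, 14.3, 18.4, 16.2 and 13.8 RPKM in the miR-155 KO libraries, at 5.88, 7.48, 6.31, 8.77 and 8.0 in the PU.1 KI libraries and at 3.59, 2.98, 3.15 and 3.55 in the WT libraries. Every miR-155 KO library was above every PU.1 KI library, and every PU.1 KI library was above every WT library. The means were 15.3 ± 1.98 RPKM in miR-155 KO (n = 5), 7.29 ± 1.19 in PU.1 KI (n = 5) and 3.32 ± 0.299 in WT (n = 4). The log2 fold change was 2.04 ± 0.10 for miR-155 KO against WT (limma adjusted p = 2.72e-12), 1.02 ± 0.10 for PU.1 KI against WT (4.38e-07) and 1.02 ± 0.10 for miR-155 KO against PU.1 KI (3.28e-08). Of 9627 tested genes, 29 had a larger positive change in miR-155 KO against WT and 37 in PU.1 KI against WT. By read support, Il6 rested on an estimated 640 to 1025 reads a library in miR-155 KO, 263 to 471 in PU.1 KI and 127 to 180 in WT.

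Tnf encodes tumour necrosis factor, an inflammatory cytokine made as a membrane protein and released by cleavage. Its gene (ENSMUSG00000024401) lies on chromosome 17 at 35336326 to 35338952 on the minus strand. Tnf was at 1.12, 1.08, 1.13, 1.31 and 2.22 RPKM in miR-155 KO, at 4.41, 5.00, 4.84, 4.47 and 4.28 in PU.1 KI and at 6.60, 8.12, 6.28 and 7.55 in WT. The 3 genotypes did not overlap, and miR-155 KO replicate 5 was the highest of its genotype. The means were 1.37 ± 0.484 RPKM in miR-155 KO (n = 5), 4.60 ± 0.304 in PU.1 KI (n = 5) and 7.14 ± 0.850 in WT (n = 4). Tnf changed by -2.05 ± 0.12 in miR-155 KO against WT (limma adjusted p = 3.49e-11), by -0.58 ± 0.12 in PU.1 KI against WT (0.00144) and by -1.48 ± 0.11 between miR-155 KO and PU.1 KI (2.22e-09). Only 6 of the 9627 tested genes fell further than Tnf in miR-155 KO against WT, and 55 did in PU.1 KI against WT. Tnf in miR-155 KO rested on an estimated 82.8 to 149 reads a library, and in WT on 363 to 537.

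The windows around the transcription starts of Il6 and Tnf are given because these genes had the largest opposite changes of the 6 and PU.1 recognises DNA with a GGAA core. They run from 250 bases before to 50 after the start in RefSeq on GRCm38.p6, 5′ to 3′ on each gene's strand, with every GGAA or TTCC, the core on either strand, in capitals. The Il6 window is chr5:30012864-30013163 on the plus strand and the Tnf window is chr17:35201958-35202257 on the minus strand.
Il6: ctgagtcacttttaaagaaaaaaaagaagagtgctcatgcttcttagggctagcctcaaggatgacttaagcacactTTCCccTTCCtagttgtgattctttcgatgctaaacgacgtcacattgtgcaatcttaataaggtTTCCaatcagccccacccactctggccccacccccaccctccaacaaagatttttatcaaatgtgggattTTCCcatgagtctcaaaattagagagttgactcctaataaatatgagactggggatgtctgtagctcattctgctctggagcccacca
Tnf: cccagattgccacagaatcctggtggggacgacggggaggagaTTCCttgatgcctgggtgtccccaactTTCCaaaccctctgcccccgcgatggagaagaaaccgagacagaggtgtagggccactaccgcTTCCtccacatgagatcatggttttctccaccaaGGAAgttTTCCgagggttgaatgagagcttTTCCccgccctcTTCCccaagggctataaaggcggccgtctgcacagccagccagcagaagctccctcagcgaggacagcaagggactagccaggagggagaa

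The core occurred 4 times in the Il6 window and 7 times in the Tnf window. It occurred 7 times in Lta, 5 times in Ltb and 1 time in Tgfb1, and the promoter table had windows for 5 of the 6 genes. Among 32851 windows of the same length 96.0% held at least 1 core, with a median of 3. At least as many cores as in Il6 were held by 46.3% of windows, at least as many as in Tnf and Lta by 8.02%, and as in Ltb by 28.6%. A longer PU.1-like string, GAGGAA on either strand, which contains the core, occurred 1 time each in Tnf and Ltb and in 28.3% of all windows. The NF-kB consensus, searched on both strands, occurred 1 time in Il6, 44 bases before the start, 1 time in Ltb, 87 bases before, and 1 time in Tgfb1, 140 bases before. In Il6 and Ltb it overlapped a core. It was not found in the Tnf and Lta windows, and 8.46% of all windows held it. TATAAA, on either strand, occurred 1 time in Tnf and 1 time in Lta, and in 13.6% of windows. A match is a description of letters and not of binding, which was not measured here.

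Lta encodes lymphotoxin alpha, which is secreted or held at the cell surface by lymphotoxin beta. The gene (ENSMUSG00000024402) lies on chromosome 17 at 35340110 to 35342296 on the minus strand. Lta was at 2.69, 2.15, 2.55, 2.15 and 3.26 RPKM in miR-155 KO, at 4.32, 4.85, 4.85, 5.73 and 5.50 in PU.1 KI and at 5.82, 7.25, 7.14 and 6.85 in WT. No genotype overlapped another. The means were 2.56 ± 0.458 RPKM in miR-155 KO (n = 5), 5.05 ± 0.564 in PU.1 KI (n = 5) and 6.76 ± 0.652 in WT (n = 4). The change was -1.26 ± 0.10 in miR-155 KO against WT (limma adjusted p = 1.79e-09), -0.39 ± 0.10 in PU.1 KI against WT (0.00547) and -0.87 ± 0.09 between the mutants (1.65e-07).

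Ltb encodes lymphotoxin beta, the membrane partner that anchors lymphotoxin alpha at the cell surface. Its gene (ENSMUSG00000024399) lies on chromosome 17 at 35331384 to 35333265 on the plus strand. Ltb was at 15.2, 16.7, 15, 13.4 and 16.3 RPKM in miR-155 KO, at 23.1, 23.2, 26.3, 25.7 and 21.9 in PU.1 KI and at 23.6, 28.2, 34.5 and 30.1 in WT. The miR-155 KO libraries lay below all others, while PU.1 KI and WT overlapped through WT replicate 1 at 23.6. The means were 15.3 ± 1.27 RPKM in miR-155 KO (n = 5), 24.0 ± 1.89 in PU.1 KI (n = 5) and 29.1 ± 4.51 in WT (n = 4). Ltb changed by -0.89 ± 0.09 in miR-155 KO against WT (limma adjusted p = 5.88e-08) and by -0.63 ± 0.08 between the mutants (2.87e-06). The lower level in PU.1 KI than in WT, -0.26 ± 0.09, passed the limma test at an adjusted p of 0.0338, and the exact permutation test gave p = 0.0635. Its adjusted p was 0.0777 without the filter on low values. It also missed the threshold without WT replicate 2, 3 or 4 or without PU.1 KI replicate 1, 2 or 5, with an adjusted p of up to 0.139 and a change of -0.18 without WT replicate 3.

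Il10 encodes interleukin 10, an inhibitory cytokine of B cells called regulatory, and was the lowest of the 6 genes in every genotype by mean RPKM. Its gene (ENSMUSG00000016529) lies on chromosome 1 at 132916422 to 132921551 on the plus strand. Il10 was at 0.844, 1.07, 1.26, 1.48 and 1.42 RPKM in miR-155 KO, at 2.10, 2.64, 3.0, 2.83 and 2.11 in PU.1 KI and at 0.934, 1.45, 1.77 and 1.32 in WT. Every PU.1 KI library was above every library of the other 2 genotypes, and miR-155 KO and WT overlapped. The means were 1.21 ± 0.261 RPKM in miR-155 KO (n = 5), 2.54 ± 0.413 in PU.1 KI (n = 5) and 1.37 ± 0.347 in WT (n = 4). Il10 rose by 0.71 ± 0.13 in PU.1 KI against WT (limma adjusted p = 0.000391) and was -0.83 ± 0.12 in miR-155 KO against PU.1 KI (9.57e-06). Between miR-155 KO and WT the difference was -0.12 ± 0.13, with an interval of -0.37 to 0.13 (limma adjusted p = 0.432, exact permutation p = 0.508). Such a p does not show that the levels were equal. At this level 53.9 estimated reads stood behind the lowest WT library and 57.9 behind the lowest miR-155 KO library, so counting error alone amounts to 13.6% and 13.1% of their values.

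Tgfb1 encodes transforming growth factor beta 1, an inhibitory cytokine secreted in a latent form. The gene (ENSMUSG00000002603) lies on chromosome 7 at 26472021 to 26490096 on the plus strand. Tgfb1 was at 14.3, 16.2, 14.5, 13.3 and 17 RPKM in miR-155 KO, at 21.4, 22.6, 27.5, 27.4 and 21.1 in PU.1 KI and at 17.5, 23.7, 25.7 and 20.9 in WT. All miR-155 KO libraries were below all others, the nearest being WT replicate 1 at 17.5, and PU.1 KI overlapped WT. The means were 15.1 ± 1.52 RPKM in miR-155 KO (n = 5), 24.0 ± 3.20 in PU.1 KI (n = 5) and 22 ± 3.56 in WT (n = 4). Tgfb1 changed by -0.52 ± 0.10 in miR-155 KO against WT (limma adjusted p = 0.000248) and by -0.65 ± 0.10 against PU.1 KI (1.35e-05). PU.1 KI and WT differed by 0.13 ± 0.10, with an interval of -0.07 to 0.33 (limma adjusted p = 0.384, exact permutation p = 0.381).

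**Figure D2:**
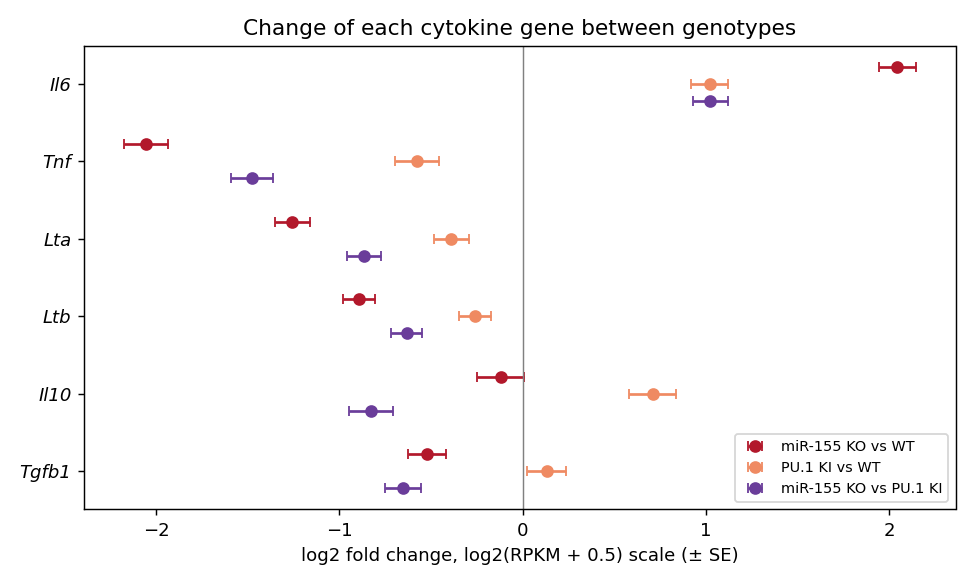
Log2 fold change ± SE of each cytokine gene (rows) on the log2(RPKM + 0.5) scale (horizontal axis) for miR-155 KO against WT, PU.1 KI against WT and miR-155 KO against PU.1 KI. Il6 lies to the right of 0 and Tnf, Lta and Ltb to the left in all 3 comparisons, while Il10 lies at 0.71 for PU.1 KI against WT and at -0.12 for miR-155 KO against WT.

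Exact permutation tests of single genes (18 tests, two-sided, not adjusted) add nothing to the ranges where groups do not overlap, since p is then fixed at its smallest value. The smallest p this design allows is 0.0159 for 5 libraries against 4 and 0.00794 for 5 against 5, and it was reached wherever the groups did not overlap. That was so for 5 of the 6 genes in miR-155 KO against WT, 4 of 6 in PU.1 KI against WT and 6 of 6 between the mutants. Of all tested genes, 48.4%, 22.1% and 43.1% had groups that did not overlap in the same 3 comparisons.

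The order of the 6 genes by RPKM differed between the genotypes. In miR-155 KO, Ltb, Il6 and Tgfb1 were the highest, at 15.3, 15.3 and 15.1 RPKM, and their ranges overlapped. They were followed by Lta, Tnf and Il10, of which Lta was above Tnf in 5 of 5 libraries and Tnf above Il10 in 3 of 5. In PU.1 KI the order was Ltb, Tgfb1, Il6, Lta, Tnf and Il10, and the ranges of Ltb and Tgfb1 and of Lta and Tnf overlapped. In WT it was Ltb, Tgfb1, Tnf, Lta, Il6 and Il10, with Ltb above Tgfb1 in 4 of 4 libraries and Tnf above Lta in 3 of 4. Il6 was thus second by mean in miR-155 KO, the third in PU.1 KI and the fifth in WT.

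Ratios of 2 genes within a library were chosen after the values were seen. The ratio of Il6 to Tnf averaged 12.1 ± 3.65 in miR-155 KO, 1.59 ± 0.305 in PU.1 KI and 0.471 ± 0.0752 in WT, which is a description, since Il6 and Tnf were already apart in opposite directions. Ratios within the gene cluster were tested, 9 tests in all. The unequal falls of Tnf, Lta and Ltb were already known, so these p-values are descriptions too. Tnf over Lta averaged 0.531 ± 0.113 in miR-155 KO, 0.922 ± 0.130 in PU.1 KI and 1.06 ± 0.120 in WT. Lta over Ltb averaged 0.167 ± 0.0259 in miR-155 KO, 0.211 ± 0.0274 in PU.1 KI and 0.234 ± 0.0219 in WT. Both ratios were lower in miR-155 KO than in WT in every library (exact permutation p = 0.0159 each, Benjamini-Hochberg adjusted over the 9 tests 0.0286). Between PU.1 KI and WT neither ratio passed (exact permutation p = 0.206 each), and nor did Tnf over Ltb (exact permutation p = 0.0794).

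**Figure D3:**
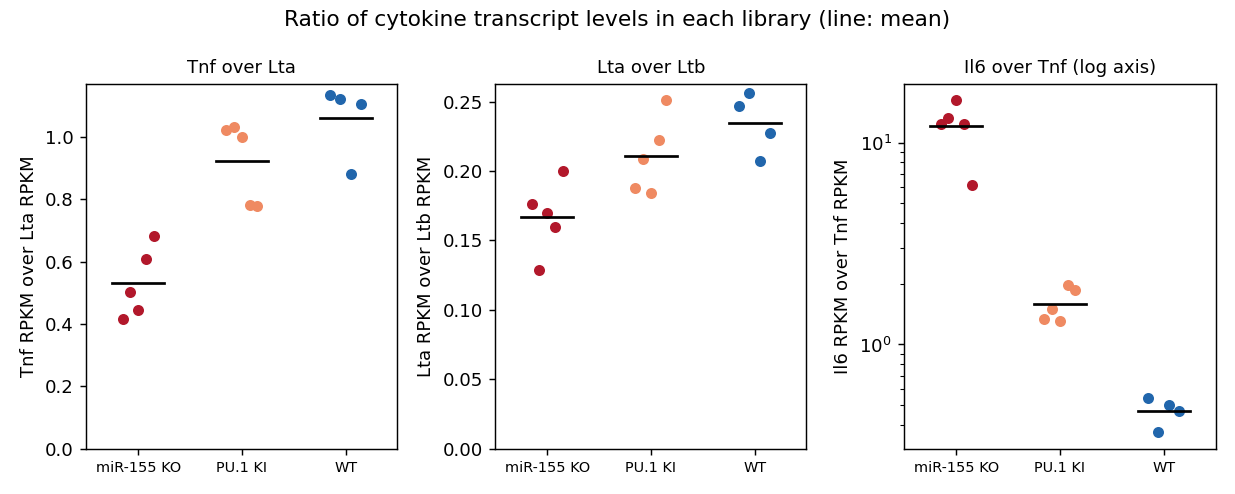
Ratio of RPKM of 2 cytokine genes in each library (points; line, mean) of miR-155 KO, PU.1 KI and WT, with a log axis for Il6 over Tnf. Tnf over Lta averaged 0.531 in miR-155 KO, 0.922 in PU.1 KI and 1.06 in WT, and Il6 over Tnf averaged 12.1, 1.59 and 0.471 in the same order.

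Ltb, Tnf and Lta lie within 10913 bp on chromosome 17, with 3060 bp between Ltb and Tnf and 1157 bp between Tnf and Lta. Ltb is on the plus strand and the other two are on the minus strand. The table gave 3 tested neighbours. Lst1, next to Ltb and known from myeloid cells and lymphocytes, averaged 4.52 RPKM in miR-155 KO, 5.55 in PU.1 KI and 4.65 in WT, with a change of -0.04 ± 0.08 in miR-155 KO against WT (limma adjusted p = 0.689) and 0.24 ± 0.08 in PU.1 KI against WT (0.0229). Nfkbil1, next to Lta, averaged 4.10 RPKM in miR-155 KO, 4.61 in PU.1 KI and 3.18 in WT and was higher than WT in both mutants, by 0.33 ± 0.12 in miR-155 KO (limma adjusted p = 0.0268) and 0.49 ± 0.12 in PU.1 KI (0.00615). Prrc2a averaged 51.8 RPKM in miR-155 KO, 66.2 in PU.1 KI and 61.6 in WT, with a change of -0.25 ± 0.10 in miR-155 KO against WT (limma adjusted p = 0.0339) and 0.11 ± 0.10 in PU.1 KI against WT (0.448).

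**Figure D4:**
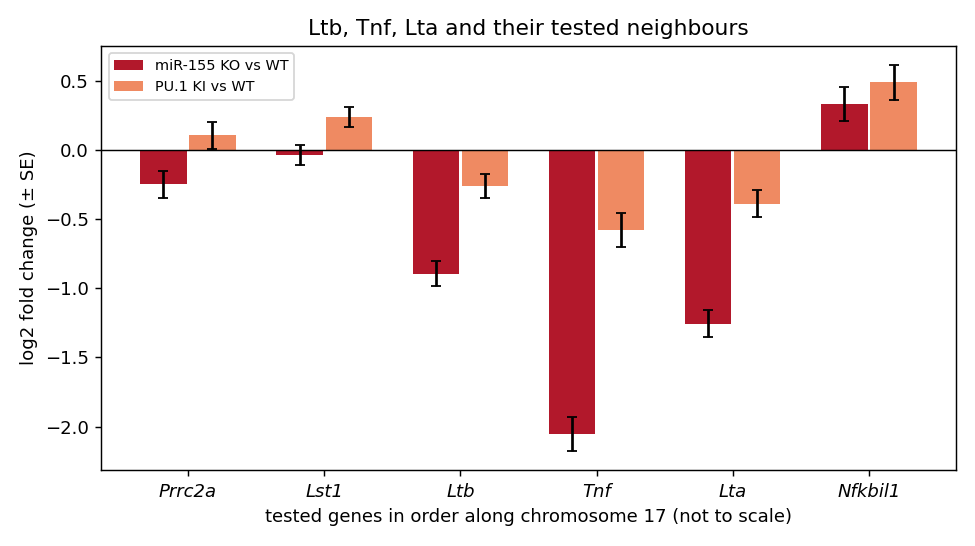
Log2 fold change ± SE against WT (vertical axis) of the tested genes in their order along chromosome 17 (horizontal axis, not to scale), with miR-155 KO to the left of PU.1 KI for each gene. Tnf stands at -2.05 in miR-155 KO and -0.58 in PU.1 KI, between Ltb at -0.89 and -0.26 and Lta at -1.26 and -0.39.

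At the other loci the nearest tested genes were these. Mapkapk2, beside Il10 and encoding a protein kinase, rose by 0.30 ± 0.06 in miR-155 KO against WT (limma adjusted p = 0.000304) and by 0.32 ± 0.06 in PU.1 KI against WT (0.000668). Tyms, beside Il6 and encoding thymidylate synthase, rose by 0.21 ± 0.06 in miR-155 KO against WT (0.00780) and was at 0.05 ± 0.06 in PU.1 KI against WT (0.594). B9d2, 444 bp from Tgfb1, fell by 0.23 ± 0.09 in miR-155 KO against WT (limma adjusted p = 0.0257).

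The counts of called genes in the lists that follow stand beside 62.5% of all tested genes called in miR-155 KO against WT, 27.7% in PU.1 KI against WT and 64.3% between the mutants. Among 40 other interleukins, interferons and colony factors, 7 were tested. Against WT, 2 rose and 4 fell in miR-155 KO, and in PU.1 KI against WT 2 rose and 0 fell, with list medians of -0.22 and 0.14 beside -0.05 and 0.08 over all genes. With median-of-ratios scaling 2 fell in PU.1 KI against WT. Ebi3, which encodes a subunit shared by IL-27 and IL-35, averaged 92.9 ± 4.6 RPKM in miR-155 KO, 90.7 ± 10 in PU.1 KI and 60.1 ± 7.5 in WT and rose in both mutants (limma adjusted p = 3.07e-06 and 3.31e-05). Csf1, the macrophage colony-stimulating factor, averaged 3.74 RPKM in miR-155 KO, 9.19 in PU.1 KI and 9.93 in WT, and fell by 1.30 ± 0.06 in miR-155 KO against WT (2.91e-12). Mif, macrophage migration inhibitory factor, which has near-identical copies in the mouse genome, averaged 109 RPKM in miR-155 KO, 223 in PU.1 KI and 203 in WT and fell in miR-155 KO against WT (4.17e-07).

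Of 15 TNF superfamily ligands outside the gene cluster 4 were tested, and in miR-155 KO against WT all 4 rose, with a list median of 1.23. The filter on low values favours such a count, because a ligand that is low elsewhere can pass through the miR-155 KO libraries. Tnfsf4 could pass only through them, and of the 4 only Tnfsf9 averaged over 1 RPKM in every genotype. The count and the median are therefore not a result about the list. In PU.1 KI against WT 2 rose and 0 fell on the deposited scale, and 1 fell with either other scaling. Tnfsf9, the 4-1BB ligand, averaged 7.05 ± 0.56 RPKM in miR-155 KO, 3.95 ± 0.44 in PU.1 KI and 1.98 ± 0.35 in WT (limma adjusted p = 1.49e-11 and 9.3e-07 against WT). Cd70, the CD27 ligand, averaged 1.22 RPKM in miR-155 KO, 1.03 in PU.1 KI and 0.356 in WT. It passed the filter only through the mutant libraries, so its higher level there is a description too. Tnfsf8, the CD30 ligand, averaged 3.04 RPKM in miR-155 KO, 0.947 in PU.1 KI and 0.985 in WT, and Tnfsf4, the OX40 ligand, averaged 1.75, 0.315 and 0.471 RPKM in the same order. Tnfsf8 rose in miR-155 KO (limma adjusted p = 2.7e-09 against WT). The level of Tnfsf4 is a description only, since it passed the filter through the libraries where it is high.

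Of 13 receptors of the 6 cytokines 9 were tested. For miR-155 KO against WT, 3 rose and 2 fell, and in PU.1 KI against WT 4 rose and 1 fell, or 4 and 2 with median-of-ratios scaling and 3 and 2 with quantile scaling. Il6ra, the IL-6 receptor alpha chain, averaged 5.87 RPKM in miR-155 KO, 4.66 in PU.1 KI and 3.39 in WT and rose in both (limma adjusted p = 9.77e-09 and 6.98e-05 against WT). Il10ra, the ligand-binding chain of the IL-10 receptor, averaged 10.8 RPKM in miR-155 KO, 13.9 in PU.1 KI and 8.23 in WT, and rose by 0.37 ± 0.07 in miR-155 KO against WT (limma adjusted p = 0.000171) and by 0.72 ± 0.07 in PU.1 KI against WT (3.75e-07). Between the mutants it changed by -0.35 ± 0.07 (0.000172). Tnfrsf1b, a TNF receptor, averaged 4.83 RPKM in miR-155 KO, 7.27 in PU.1 KI and 6.80 in WT and fell in miR-155 KO against WT (4.36e-07). Tgfbr2, the type II TGF-beta receptor, averaged 10.3 RPKM in miR-155 KO, 13.7 in PU.1 KI and 12.9 in WT and fell in miR-155 KO against WT (0.000134).

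Of 17 genes for release of TNF and for latency of TGF-beta 8 were tested. Against WT, 4 rose and 1 fell in miR-155 KO, and in PU.1 KI against WT 2 rose and 2 fell, of which the 2 that rose were lost with median-of-ratios scaling. Lrrc32, which encodes GARP, a protein that holds latent TGF-beta at the cell surface, averaged 0.605 ± 0.093 RPKM in miR-155 KO, 2.66 ± 0.28 in PU.1 KI and 5.16 ± 0.34 in WT. It fell by 2.36 ± 0.08 in miR-155 KO against WT (limma adjusted p = 5.78e-15) and fell by 0.84 ± 0.08 in PU.1 KI against WT (1.3e-07). Adam10, a sheddase, averaged 22.4 RPKM in miR-155 KO, 16.5 in PU.1 KI and 18.3 in WT and rose in miR-155 KO against WT (0.000151). Adam17, the TNF-cleaving enzyme, averaged 12.3 RPKM in miR-155 KO, 14.5 in PU.1 KI and 13 in WT and, between the mutants, fell by 0.24 ± 0.05 (0.000625). In miR-155 KO against WT it was not called (-0.08 ± 0.06, limma adjusted p = 0.198). Its rise in PU.1 KI against WT (0.15 ± 0.06, limma adjusted p = 0.0440) was lost with either other scaling.

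**Figure D5:**
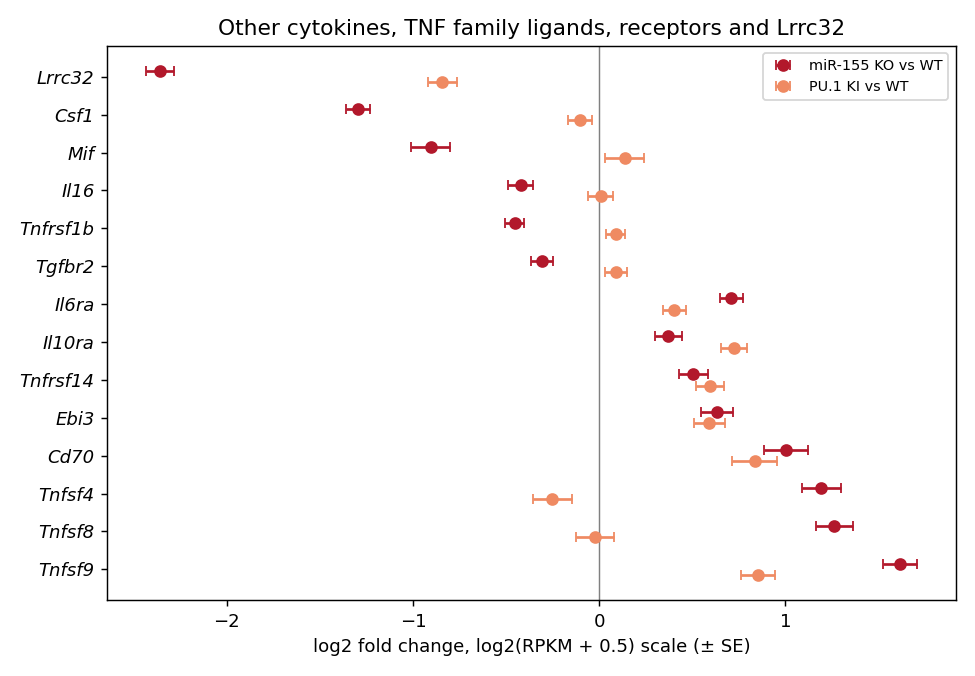
Log2 fold change ± SE against WT (horizontal axis) of other cytokines, TNF superfamily ligands, receptors and Lrrc32 (rows) for miR-155 KO and PU.1 KI. Lrrc32 stands furthest to the left, at -2.36 in miR-155 KO and -0.84 in PU.1 KI, and Tnfsf9 furthest to the right in miR-155 KO at 1.62. Tnfsf4 and Cd70 passed the filter on low values only through libraries where they are high and are shown as descriptions.

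Of 14 genes of the SMAD pathway, which carries the TGF-beta signal, 12 were tested. For miR-155 KO against WT, 7 rose and 2 fell, with a list median of 0.18, and in PU.1 KI against WT 4 rose and 2 fell, or 2 and 3 with median-of-ratios scaling. Smad4, the common partner, averaged 20.0 RPKM in miR-155 KO, 11.6 in PU.1 KI and 10.1 in WT, and rose by 0.95 ± 0.06 in miR-155 KO against WT (limma adjusted p = 1.54e-10). Smad5, which carries BMP signals, averaged 5.59 RPKM in miR-155 KO, 2.72 in PU.1 KI and 2.77 in WT and rose in miR-155 KO against WT (3.73e-10), as did Ski, a repressor of SMADs (5.51e-08).

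All 15 listed regulators of cytokine mRNA decay were tested. Against WT, 3 rose and 5 fell in miR-155 KO, or 5 and 5 with either other scaling, and in PU.1 KI against WT 2 rose and 0 fell, but 1 rose and 4 fell with median-of-ratios and with quantile scaling. Arid5a, which stabilises Il6 mRNA, averaged 53.3 ± 2.4 RPKM in miR-155 KO, 59.1 ± 4.8 in PU.1 KI and 39.9 ± 3.0 in WT and rose in both mutants (limma adjusted p = 2.63e-05 and 4e-06). Zfp36l2, a protein that binds AU-rich elements and promotes decay, averaged 6.15 RPKM in miR-155 KO, 8.63 in PU.1 KI and 9.40 in WT and fell in miR-155 KO against WT (2.22e-06). Zc3h12a, which encodes regnase-1, a nuclease that degrades Il6 mRNA, averaged 11.3 RPKM in miR-155 KO, 16.1 in PU.1 KI and 13.3 in WT and, between the mutants, fell by 0.49 ± 0.09 (0.00012). Against WT, Zc3h12a was higher in PU.1 KI by 0.27 ± 0.10 (limma adjusted p = 0.0400), a call lost with either other scaling. In miR-155 KO against WT it was not called (-0.22 ± 0.10, 0.0561). Also in miR-155 KO against WT, Rc3h2 rose by 0.36 ± 0.05 (1.11e-05) and Hnrnpd changed by -0.55 ± 0.08 (5.18e-06).

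Of 33 transcription factors and NF-kB regulators of cytokine genes 29 were tested. For miR-155 KO against WT, 14 rose and 9 fell, and in PU.1 KI against WT 13 rose and 4 fell, or 12 and 7 with either other scaling. Nfkbia, an NF-kB inhibitor that is also an NF-kB target, averaged 73.8 ± 1.4 RPKM in miR-155 KO, 51.5 ± 4.2 in PU.1 KI and 33.7 ± 4.1 in WT and rose in both (limma adjusted p = 2.03e-10 and 5.36e-06). Tnfaip3, a feedback inhibitor of NF-kB, averaged 48.2 RPKM in miR-155 KO, 54.0 in PU.1 KI and 38.0 in WT and rose in both (6.39e-05 and 3.32e-06). Relb, an NF-kB subunit, averaged 15.1 RPKM in miR-155 KO, 12.7 in PU.1 KI and 9.42 in WT and rose in both (1.01e-07 and 0.000126). Irf4, a factor of plasma cell differentiation, averaged 60.1 RPKM in miR-155 KO, 49.5 in PU.1 KI and 37.9 in WT and rose in both (2.35e-07 and 0.00066). Bcl6, the germinal centre repressor, fell to 4.79 RPKM in miR-155 KO, against 8.56 in WT (2.68e-09).

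Of 15 surface markers used for regulatory and cytokine-making B cells 14 were tested. Against WT, 8 rose and 5 fell in miR-155 KO, and in PU.1 KI against WT 6 rose and 1 fell. Havcr1, which encodes TIM-1, averaged 14 ± 2.1 RPKM in miR-155 KO, 6.17 ± 0.34 in PU.1 KI and 3.08 ± 0.23 in WT, and Cd80, a costimulatory ligand, averaged 16.1 ± 1.2, 10.3 ± 0.85 and 4.54 ± 0.51 RPKM in the same order. Both rose in both mutants, with limma adjusted p of 2.09e-13 and 3.85e-13 in miR-155 KO and 1.55e-07 and 3.05e-09 in PU.1 KI. Lag3, an inhibitory receptor, averaged 14.5 RPKM in miR-155 KO, 8.86 in PU.1 KI and 4.61 in WT and rose in both (1.86e-09 and 2.01e-05). Pdcd1lg2, which encodes PD-L2, fell in both mutants and averaged 2.14 RPKM in miR-155 KO, 3.90 in PU.1 KI and 6.10 in WT (limma adjusted p = 8.07e-12 and 4.73e-06).

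Of 20 genes downstream of cytokine and TNF receptors 16 were tested. For miR-155 KO against WT, 8 rose and 2 fell, and in PU.1 KI against WT 7 rose and 1 fell, or 4 and 3 with median-of-ratios scaling. Socs3, the feedback inhibitor induced by IL-6 and IL-10, averaged 10.5 ± 1.2 RPKM in miR-155 KO, 10.9 ± 1.6 in PU.1 KI and 4.69 ± 0.48 in WT and rose in both mutants (limma adjusted p = 1.81e-08 and 8.81e-08). Cish, a feedback inhibitor of STAT5 signalling, averaged 41.1 RPKM in miR-155 KO, 29.3 in PU.1 KI and 19.7 in WT (1.85e-10 and 5.37e-06). Icam1, an adhesion molecule induced by TNF, averaged 16.1 RPKM in miR-155 KO, 23.1 in PU.1 KI and 20.1 in WT, and between the mutants it fell by 0.51 ± 0.07 (limma adjusted p = 3.78e-06).

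Between the mutants the same lists split as follows. Of the tested TNF superfamily ligands 3 rose and 0 fell in miR-155 KO against PU.1 KI, a count again tied to the filter. Of the other interleukins and colony factors 0 rose and 4 fell. For the receptors 3 rose and 4 fell, for release and latency 3 rose and 2 fell, and for the SMAD pathway 5 rose and 2 fell. Of the mRNA decay regulators 1 rose and 6 fell, of the transcription factors 7 rose and 12 fell, of the B cell markers 5 rose and 6 fell and of the downstream genes 7 rose and 6 fell. These counts depend on the scaling. With median-of-ratios scaling 10 SMAD pathway genes rose and 2 fell, 4 decay regulators rose and 6 fell, and 2 other interleukins rose and 3 fell. For release and latency that scaling gave 5 higher and 2 lower, for the receptors 4 and 3 and for the transcription factors 12 and 9. The B cell markers gave 7 and 6 and the downstream genes 9 and 1. It left 3 and 0 for the TNF superfamily ligands.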

How the data were processed

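The authors deposited 1 table of RPKM values, with a column per library and positions on NCBIM37. Per the submitters' processing notes, Trim Galore and TopHat were used, with no versions. The sources used here name no read counter, annotation or strand setting, and do not say which libraries shared a sequencing pool. All 14 columns were matched to libraries by name. The filter kept genes that reached an RPKM of 1 in 4 or more libraries. Values of log2(RPKM + 0.5) were fitted with limma 3.58.1 (R 4.3.3) over all 14 libraries, with a mean for each genotype, a trend in the moderation and Benjamini-Hochberg adjustment over 9627 genes at 0.05. Exact permutation tests used scipy 1.17.1 and were two-sided. The fit was tested on simulated data.

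Intervals are ± 1.96 SE. Depth was the value that turned the 250 lowest values of genes spanning under 2500 bp into whole reads, and 73.2% to 82.0% came within 0.01 of a whole number. Estimated reads assume the length of the first GENCODE M21 transcript and cover counting error only.

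The members and lists were chosen with earlier results of these data known. From the lists, up to 4 called genes a comparison with the smallest adjusted p were eligible for naming. Sequences are from RefSeq and GENCODE M21, matched by symbol.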

Additional observations from a re-analysis of the deposited data

Results flagged for a closer look

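Tnf in miR-155 KO replicate 5, at 2.22 RPKM, stood far from the other 4 libraries of its genotype, which lay between 1.08 and 1.31 RPKM. The gap took up 0.801 of the range of the genotype. Of the 18 gene and genotype groups examined this was the 1 that stood out, and chance alone gives about 1 in 20. The same library was the lowest of its genotype on the first principal component, at 19.8. Without it the log2 fold change of Tnf was -2.20 for miR-155 KO against WT and -1.62 for miR-155 KO against PU.1 KI.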

How the results depend on the processing

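The alternatives were another pseudocount (0.1 or 1), no filter on low values or a filter at 5 RPKM, median-of-ratios scaling or quantile normalization, only the 2 genotypes compared, a replicate block, each library left out in turn and, chosen after seeing the data, both libraries that stood apart left out. Of the 18 changes of the 6 genes, 17 kept direction and side of the threshold under all of these, as did 320 of 327 alternative values. The exception was Ltb in PU.1 KI against WT, which was -0.26 with an adjusted p of 0.0777 without the filter, where more genes are tested, and lay between -0.36 and -0.18 with 1 library left out. Il10 had no value with the filter at 5 RPKM. With 1 library left out, between 4 and 5 of the 6 genes were called in PU.1 KI against WT. Genes called over the whole table in PU.1 KI against WT ranged from 1966 to 3128 with 1 library left out, against 2667 with all.

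The counts of list genes moved by over 1.5 times in 8 of 110 alternatives. In PU.1 KI against WT 11 list genes fell, but 25 with median-of-ratios scaling, 26 with quantile normalization and 7 without WT replicate 3. In miR-155 KO against PU.1 KI 34 rose, but 56 and 53 with these scalings. The cause was not tested. Correlations of deviations between same-numbered libraries ran from -0.387 to 0.466 over 13 pairs, with a median of 0.106. Between different-numbered libraries they ran from -0.558 to 0.568 over 52 pairs, with a median of -0.00966. The first range lies within the second, and the numbers were not taken as pairs. With a replicate block 2908, 6326 and 6461 genes were called for PU.1 KI against WT, miR-155 KO against WT and miR-155 KO against PU.1 KI, and no call among the 6 genes changed. Depth limits Il10 most, at 53.9 estimated reads in 1 WT library.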

Other observations

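The genes whose pattern over the 14 libraries was most like each cytokine gene were ranked by Pearson correlation of log2(RPKM + 0.5). The libraries of a genotype share their mean, so most of such a correlation is the difference between genotypes, and the correlation of deviations from the genotype means is given second. For Il6 the nearest was Cdc14b (0.99, and 0.79 within genotypes), for Tnf it was Tsr1 (0.99 and 0.80) and for Lta it was Sept9 (0.99 and 0.85). For Ltb it was Irf8, which encodes a B cell transcription factor (0.98 and 0.94), for Il10 it was Psmd14 (0.96 and 0.83) and for Tgfb1 it was Tmbim6 (0.99 and 0.98). Irf8 averaged 84.0 RPKM in miR-155 KO, 113 in PU.1 KI and 124 in WT.

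Among the 6 genes themselves, Ltb and Tgfb1, which lie on different chromosomes, had a correlation of deviations from the genotype means of 0.90 over 14 libraries. For Tnf and Ltb, which are neighbours, it was 0.10. Tnf and Lta gave 0.53 and Il6 and Tnf gave -0.25. These are descriptions, and the libraries share depth and composition.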
